A study of Mus musculus with 18 samples.

Results

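The clustered histone genes are the replication-dependent histone genes that lie side by side in a few gene clusters. They were taken as every gene of the table whose symbol begins with Hist1h, Hist2h, Hist3h or Hist4h and does not end in -ps, with no use of measured values. This gave 69 genes of 54752 in the table: 6 genes of the linker histone H1, 20 of H2A, 18 of H2B, 12 of H3 and 13 of H4. By symbol, 56 of them are Hist1 genes on chromosome 13, 10 Hist2 on chromosome 3, 2 Hist3 on chromosome 11 and 1 Hist4 on chromosome 6. Hist1h2al, annotated as a processed pseudogene, lies apart from the Hist1 cluster at chr13:51202727-51203065. Hist1h2aj is annotated as an unprocessed pseudogene. Of the 69 genes, 61 passed the filter on low counts and were tested. The 8 others were Hist1h1t, Hist1h2aa, Hist1h2al, Hist1h2ba, Hist2h2aa2, Hist2h2bb, Hist2h3b and Hist3h2ba, of which 3 (Hist2h2aa2, Hist2h2bb and Hist2h3b) had no count in any library. Hist1h1t, Hist1h2aa and Hist1h2ba are known as testis histones, and a list of 5 testis germ cell genes summed to at most 0.418 CPM (counts scaled to a common library size) in any library.

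Liver RNA of 18 male C57BL/6 mice was compared in 3 groups of 6, each library taken as 1 mouse. Cirrhosis-PTH mice were injected with 10% CCl4 (carbon tetrachloride, toxic to hepatocytes) and were given oral PTH daily, 0.25 mg/g of a 50 mg/ml preparation, where PTH stands for Pien Tze Huang, a Chinese herbal and animal remedy, rather than the parathyroid hormone. Cirrhosis mice received the same CCl4 and daily double distilled water by mouth. Control mice received corn oil and the same water. Every injection was intraperitoneal, 10 µl per g given 2 times a week, for 12 weeks in mice bought at 6 weeks of age, and CCl4 was dissolved in corn oil. No group had corn oil with PTH, so PTH was measured only on top of CCl4. Total RNA was depleted of ribosomal RNA before library preparation, so transcripts without a poly(A) tail could enter them.

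Histones package DNA: H2A, H2B, H3 and H4 form the core around which DNA winds, and H1 binds the linker between cores. The mRNAs of the clustered genes are made mostly in S phase, when new DNA needs new histones. They end in a conserved stem-loop in place of a poly(A) tail, which the stem-loop binding protein Slbp holds during processing, export and translation, and they are degraded when DNA synthesis stops. Some clustered genes are also transcribed outside S phase as longer polyadenylated mRNAs in differentiated cells. Replacement histones such as H3f3b and H2afz, whose genes lie elsewhere, are made through the cell cycle with a poly(A) tail. The adult liver has few dividing cells at rest, and cells divide after injury.

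The stem-loops are shown because they define the family and differ by class. The search was for a 16-base stem-loop, a 6-base stem on each side of a 4-base loop, on the sense strand of the annotated transcripts (GENCODE mouse release 21). It was found in 46 of 67 protein-coding members, against 9 of 21834 other protein-coding genes (0.0412%). The loop is in capitals.
H1, H2A, H2B and H3 members (26 genes): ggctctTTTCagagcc
H4 members (7 genes): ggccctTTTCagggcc
H1, H2B and H3 members (6 genes): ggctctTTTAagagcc
The first form was carried by Hist1h1c, Hist1h1e, Hist2h2aa1 and Hist3h2a, the second by Hist1h4h, Hist1h4c and Hist1h4d, and the third by Hist1h2bk and Hist1h3e. The 5 other forms were each carried by at most 2 genes, Hist1h4a among them. The annotated transcript ended within 60 bases of the stem-loop in 22 members and ran on beyond it in 24, and in 23 no match was found, among them Hist1h2bc, Hist1h2bq and Hist1h2br. No match says only that these letters are not in the annotated transcript.

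The members share sequence, which limits how their reads can be told apart. Of all 75-base windows of the longest transcript, a median of 42.4% occurred in another gene, with medians of 68% in H2A, 59% in H3, 44.25% in H2B, 24.6% in H4 and 0.75% in H1. Hist1h2bq shared 95.9% of its windows and Hist1h2br 87.1%, mostly with other H2B genes and with each other. Members also overlapped other annotated genes. Hist1h1e overlaps Hist1h2be and Gm11398, Hist3h2a overlaps Trim17, Hist1h4b lies opposite 4930558J22Rik, and Hist2h2aa1 overlaps Gm20633 and Gm20634. Gm20634 overlaps the H3 gene Hist2h3c1 as well. How reads with several matches were counted, and on which strand, is not given in the sources used here, so values of these genes are uncertain, and where reads fall to genes outside the family, class sums are too.

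The promoters of the family carry recurrent motifs. Among 63 RefSeq promoters of 62 members (250 bases before to 50 after the start, GRCm38.p6, both strands), CCAAT was present in 85.7%, against 37.4% of all 32851 promoters. It was in every H1, H2A, H2B and H3 promoter and in 3 of 12 H4 promoters. TATAAA was in 55.6% of members' promoters, against 13.6% of all. The octamer ATTTGCAT was in 7 of 18 H2A and 7 of 17 H2B promoters and in none of H1, H3 or H4, against 1.74% of all. Matches of different motifs may share bases where they adjoin. Upstream sequences are shown for Hist1h2bq, Hist1h2bk and Hist1h4a, which led the comparisons below, with matches of the 3 motifs on either strand in capitals.
Hist1h2bq, chr13:21810200-21810449, minus strand, GRCm38.p6: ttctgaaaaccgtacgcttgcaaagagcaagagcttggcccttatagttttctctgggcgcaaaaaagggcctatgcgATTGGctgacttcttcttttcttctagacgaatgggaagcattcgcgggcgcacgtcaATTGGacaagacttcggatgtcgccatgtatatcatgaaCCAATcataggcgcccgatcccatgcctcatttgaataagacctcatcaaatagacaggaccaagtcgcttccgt
Hist1h2bk, chr13:22035571-22035820, plus strand, GRCm38.p6: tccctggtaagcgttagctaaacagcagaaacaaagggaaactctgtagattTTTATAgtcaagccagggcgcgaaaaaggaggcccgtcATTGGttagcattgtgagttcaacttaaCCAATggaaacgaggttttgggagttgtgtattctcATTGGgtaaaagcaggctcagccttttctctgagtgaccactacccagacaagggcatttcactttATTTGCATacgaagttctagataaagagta
Hist1h4a, chr13:23761250-23761499, minus strand, GRCm38.p6: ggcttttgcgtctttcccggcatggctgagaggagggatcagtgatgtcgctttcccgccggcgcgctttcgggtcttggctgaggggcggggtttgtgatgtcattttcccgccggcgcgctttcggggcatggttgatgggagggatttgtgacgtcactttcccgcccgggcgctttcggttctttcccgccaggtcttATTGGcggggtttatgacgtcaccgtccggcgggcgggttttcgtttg
The 300-base promoter of Hist1h2br had the same letters as that of Hist1h2bq, and no other members had identical promoters. Hist1h2bq and Hist1h2bk each held 3 CCAAT boxes, and Hist1h4a held 1.

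Totals ran from 62482144 to 112294112 counts per library, and the members took 6786 to 31034 of them. Loci that collect ribosomal RNA reads held 31.4% to 60.8% of the counts, most in Control replicates 8 and 7 (60.8% and 50.9%). Levels are CPM on TMM-scaled library sizes, those 2 Control libraries being the smallest. Transcripts of 916 other protein-coding genes with at least 60% GC took 1.25% to 1.44% of protein-coding counts in Cirrhosis-PTH, 1.44% to 1.59% in Cirrhosis and 1.11% to 1.39% in Control. The members are GC-rich too, at a median of 58.3% against 48.7% in all genes tested. Hepatocyte markers, 9 of 10 listed genes in the table, summed to 53400 to 58400 CPM in Cirrhosis-PTH, 33000 to 54400 CPM in Cirrhosis and 53700 to 70700 CPM in Control. In bulk tissue, fewer cells of a type and less RNA per cell cannot be told apart.

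Summed over all 69 genes, the lowest, median and highest library had 128, 168 and 230 CPM in Cirrhosis-PTH, 110, 192 and 240 CPM in Cirrhosis, and 115, 196 and 268 CPM in Control. The groups overlapped over nearly their whole ranges, and the summed level separated no group from another. H1 made up a median of 29.4% of the members' reads in Cirrhosis-PTH, 28% in Cirrhosis and 25.2% in Control. H4 made up 35.2% in Cirrhosis-PTH, 31.1% in Cirrhosis and 35.9% in Control, and H2B 22.1%, 22.1% and 27.8% in the same groups. H2A and H3 held the least, with group medians from 5.33% to 6.99% for H2A and from 5.19% to 7.41% for H3. The H2A share includes Hist2h2aa1, whose values are uncertain. A few genes carried most reads: Hist1h2bc, Hist1h1c, Hist1h4h, Hist1h1e and Hist1h4d together held 50.7% of the members' mean CPM, and 43 of 69 genes averaged under 1 CPM. Per kilobase of the longest transcript, mean levels were highest for Hist1h4h (31.7 CPM per kb), Hist1h2bc (25.1), Hist1h1c (17.3), Hist1h4m (14.4) and Hist1h4n (12.2).

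**Figure D1:**
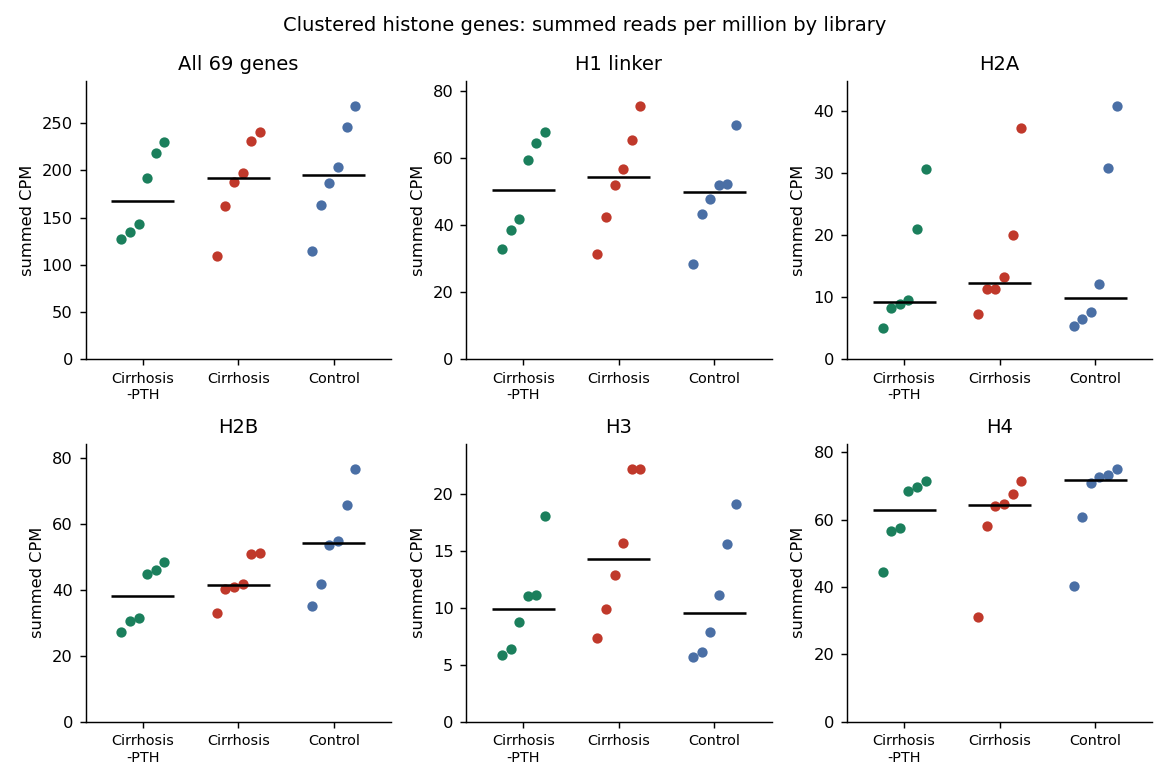
Summed CPM of the 69 clustered histone genes and of each class by library (points, 6 per group; black line, median; y axes in summed CPM from 0). The 3 groups overlap in every panel, and the highest H2A sum of each group is at least 5.15 times its lowest. The H2A sums include Hist2h2aa1, listed at 0 in 8 libraries and at up to 20.3 CPM in others.

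The libraries of 1 group differed more from each other in these genes than in most. The median coefficient of biological variation, edgeR's estimate of the spread between libraries of a group, was 46.8% in the 61 tested members and 24.6% in all 21914 tested genes. It was widest in H2A at 91.8%, then 58.4% in H3, 40.6% in H2B, 34.9% in H1 and 30.2% in H4. The 15 H2A members with Hist1 symbols, the pseudogenes Hist1h2aj and Hist1h2al among them, summed to 0.790, 2.44 and 6.85 CPM (lowest, median and highest) in Cirrhosis-PTH. Their sums were 0.878, 3.10 and 10.8 CPM in Cirrhosis, and 0.710, 2.97 and 8.22 CPM in Control. Within each group the highest library thus had at least 8.67 times the sum of the lowest. For H4 the same ratio was 1.61 in Cirrhosis-PTH, 2.30 in Cirrhosis and 1.87 in Control.

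The same libraries stood high or low in several classes. Cirrhosis-PTH replicate 2, Cirrhosis replicate 2 and Control replicate 8 had the highest summed level of their groups. Cirrhosis-PTH replicate 5, Cirrhosis replicate 5 and Control replicate 3 had the lowest. Rmrp and Rpph1, noncoding RNAs without a poly(A) tail, were chosen after their values were seen. Rmrp was lowest of its group in the same 3 libraries, at 77.7 CPM in Cirrhosis-PTH replicate 5, 42.6 CPM in Cirrhosis replicate 5 and 95.5 CPM in Control replicate 3. Its group medians were 117 CPM in Cirrhosis-PTH, 121 CPM in Cirrhosis and 174 CPM in Control. The match did not extend to every library: Rmrp was at 93.4 CPM in Cirrhosis replicate 2, under its group's median, and the lowest Rpph1 of Cirrhosis-PTH was in replicate 6 (299 CPM, against 400 CPM in replicate 5). Rpph1 was lowest in Cirrhosis replicate 5 and Control replicate 3. Summed members whose transcript ends near the stem-loop ran over a 3.46-fold range in Cirrhosis-PTH, 3.97-fold in Cirrhosis and 3.78-fold in Control. Those with a longer annotated end ran over a 1.64-fold, 2.09-fold and 2.04-fold range in the same groups. Members with no stem-loop match ran over a 1.70-fold, 1.77-fold and 2.22-fold range. The set ending near the stem-loop holds Hist2h2aa1, listed at 0 in 8 libraries and at up to 20.3 CPM in others. Its range thus rests in part on the uncertain reads of that gene. Whether RNA quality or the capture of tail-less RNA has a part in this spread was not tested.

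Cirrhosis against Control asks how these genes stand after CCl4. Of 61 tested members, 10 were higher and 4 lower in Cirrhosis past an adjusted p of 0.05 (edgeR quasi-likelihood F-test, Benjamini-Hochberg over 21914 genes). Of all genes tested, 25.5% were higher and 25% lower, so the members' shares, 16.4% and 6.56%, were under the background in both directions. Their median log2 change was 0.47, with 48 positive and 13 negative, against 0.02 and 50.9% positive over all genes. The members' median SE was 0.402, against 0.207 over all genes, so a change of the same size passed the threshold less easily. Higher were 4 H2B, 2 H1, 2 H4, 1 H2A and 1 H3 gene, and lower were 3 H4 genes and 1 H2B gene. The result turned on Control replicates 7 and 8, the libraries with the most ribosomal reads, whose member sums (246 and 268 CPM) were the highest of all Control libraries. Without them 23 members were higher, 37.7% of those tested against 26.1% of all genes, so that the share higher was over the background. Then 2 were lower, 3.28% against 20.2% of all genes, and the members' median was 1.12 against 0.09 over all genes. Without Cirrhosis replicate 2 or without Control replicate 3, 5 members were higher, and without Cirrhosis replicate 3, 6 were.

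Cirrhosis-PTH against Cirrhosis asks how PTH changes them during CCl4. No member was higher and 12 were lower in Cirrhosis-PTH, where 20.1% of all tested genes were higher and 18.6% lower. The members' share lower, 19.7%, was near that background. Their median log2 change was -0.57, with 9 positive and 52 negative, against 0.00 and 50.3% negative over all genes. The 12 were 7 H2B and 2 H3 genes and 1 gene each of H1, H2A and H4, with log2 changes from -1.41 to -0.78. They were not the abundant members: their mean levels over all libraries ran from 0.324 to 3.82 CPM. Median changes by class were -1.01 in H2B, -0.84 in H3, -0.62 in H2A, -0.24 in H1 and -0.13 in H4. Leaving out single libraries gave between 6 and 13 lower members, 7 without Cirrhosis replicate 1 or 2 or without Cirrhosis-PTH replicate 1, 4 or 6, and 6 without Cirrhosis-PTH replicate 5.

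Cirrhosis-PTH against Control asks how the treated livers stand beside uninjured ones. No member was higher and 2 were lower, where 6.34% of all genes were higher and 2.48% lower. At an unadjusted p under 0.05, 2 members were higher and 2 lower, and DESeq2 gave 1 higher and 2 lower. The median log2 change was -0.26, with 17 positive and 44 negative, against 0.01 over all genes. That direction turned without Control replicates 7 and 8, where the members' median was 0.34 against 0.03 over all genes. The 2 lower genes were Hist1h2bc and Hist1h4d. Without Control replicate 1, 2, 7 or 8, or without Cirrhosis-PTH replicate 4 or 6, 0 members were lower. Both Control comparisons share the 6 Control libraries, and both CCl4 comparisons with Cirrhosis share its 6 libraries.

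**Figure D2:**
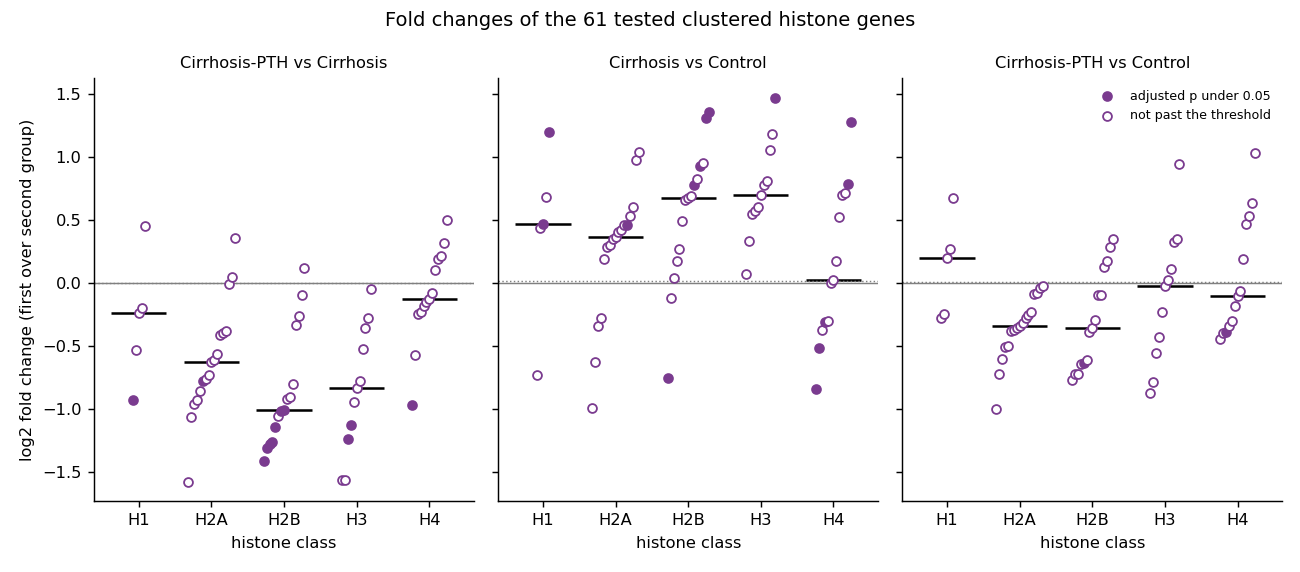
Log2 fold change of each of the 61 tested members by class in the 3 comparisons (filled, adjusted p under 0.05; open, not past it; black line, class median; dotted line, median of all tested genes). The H2B and H3 medians lie at -1.01 and -0.84 in Cirrhosis-PTH against Cirrhosis and at 0.67 and 0.70 in Cirrhosis against Control, while the H4 medians lie near 0.

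Among H2B genes, which pair with H2A in the core, Hist1h2bq (chr13:21806612-21810197) had 0.366, 0.580 and 0.731 CPM as the lowest, median and highest Cirrhosis-PTH library, 0.839, 1.08 and 1.83 CPM in Cirrhosis and 0.182, 0.530 and 0.636 CPM in Control. Every Cirrhosis library lay above every library of the other groups. Hist1h2bq fell in Cirrhosis-PTH against Cirrhosis by 1.01 on the log2 scale (SE 0.28, adjusted p = 0.00689, edgeR) and rose in Cirrhosis against Control (log2 1.36, SE 0.29, adjusted p = 0.000533). Hist1h2br (chr13:21833743-21837530), its near copy, had 0.514, 0.796 and 1.17 CPM in Cirrhosis-PTH, 1.17, 1.50 and 2.70 CPM in Cirrhosis and 0.263, 0.737 and 0.984 CPM in Control. Its lowest Cirrhosis library stood just above the highest Cirrhosis-PTH library, with the log2 change at -1.02 (SE 0.30, adjusted p = 0.0102) in Cirrhosis-PTH against Cirrhosis and at 1.31 (SE 0.31, adjusted p = 0.00138) in Cirrhosis against Control. Since their reads may be split between the copies, both were also summed as 1 gene, which gave 0.880 to 1.85 CPM in Cirrhosis-PTH, 2.01 to 4.53 CPM in Cirrhosis and 0.445 to 1.58 CPM in Control. The summed gene had log2 changes of -1.01 (SE 0.28, adjusted p = 0.00587, edgeR) and 1.32 (SE 0.28, adjusted p = 0.000544, edgeR) in the same comparisons.

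Hist1h2bk (chr13:22035870-22036345) had 0.320, 0.563 and 0.837 CPM in Cirrhosis-PTH, 0.990, 1.05 and 1.79 CPM in Cirrhosis and 0.304, 0.701 and 1.04 CPM in Control. All Cirrhosis-PTH libraries lay under all Cirrhosis libraries, and Control overlapped both. It fell in Cirrhosis-PTH against Cirrhosis by 1.14 (SE 0.29, adjusted p = 0.003) and rose in Cirrhosis against Control by 0.78 (SE 0.29, adjusted p = 0.028), both log2. The rise was lost without Control replicate 3 or 6 or Cirrhosis replicate 2 or 3 (adjusted p up to 0.0811, edgeR). Hist1h2bc (chr13:23684199-23692908), the member with the most reads, had a different pattern, with 15.4, 26.2 and 31.3 CPM in Cirrhosis-PTH, 18.8, 22.5 and 30.9 CPM in Cirrhosis and 26.4, 37.4 and 55.5 CPM in Control. It was lower than Control in Cirrhosis (log2 -0.75, SE 0.19, adjusted p = 0.00272) and in Cirrhosis-PTH (log2 -0.64, SE 0.19, adjusted p = 0.0427, and 0.238 without Control replicates 7 and 8). The Cirrhosis-PTH call of Hist1h2bc was lost in 11 of 18 fits without 1 library, Control replicates 1, 2, 7 and 8 among them. Hist1h2bg, the H2B gene next in reads, had medians of 4.60 CPM in Cirrhosis-PTH, 5.40 CPM in Cirrhosis and 6.94 CPM in Control and passed no test. Hist2h2be, an H2B gene of the Hist2 cluster with no shared windows, had medians of 1.15, 1.29 and 1.01 CPM in those groups and passed none.

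Among H4 genes, which pair with H3 in the core, Hist1h4a (chr13:23760692-23761230) had 1.18, 1.44 and 1.87 CPM in Cirrhosis-PTH, 1.23, 3.21 and 3.59 CPM in Cirrhosis and 1.35, 1.70 and 2.22 CPM in Control. Of the 6 Cirrhosis libraries, replicate 5 alone lay within the range of the other groups. Hist1h4a fell in Cirrhosis-PTH against Cirrhosis by 0.97 on the log2 scale (SE 0.22, adjusted p = 0.00106) and rose in Cirrhosis against Control by 0.78 (SE 0.22, adjusted p = 0.00453). Hist1h4h (chr13:23531050-23531519), the member with the highest level per kilobase, had 8.57, 14.3 and 22.0 CPM in Cirrhosis-PTH, 4.2, 11.2 and 13.3 CPM in Cirrhosis and 9.49, 20.7 and 25.2 CPM in Control. It was lower in Cirrhosis than in Control (log2 -0.84, SE 0.29, adjusted p = 0.022), but not past the threshold without Control replicates 7 and 8 (adjusted p = 0.107) or without Control replicate 1.

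Hist1h4c had medians of 6.69 CPM in Cirrhosis-PTH, 5.81 CPM in Cirrhosis and 8.12 CPM in Control, and was lower in Cirrhosis than in Control (log2 -0.52, SE 0.16, adjusted p = 0.0122). Hist1h4d, whose transcript shares 3.7% of its windows with other genes, had medians of 8.01, 9.02 and 10.6 CPM in the same groups. It was lower than Control in Cirrhosis (log2 -0.31, SE 0.12, adjusted p = 0.0298) and in Cirrhosis-PTH (log2 -0.39, SE 0.12, adjusted p = 0.0392). DESeq2 did not call it in Cirrhosis against Control (adjusted p = 0.0672), and no call on it held without Control replicates 7 and 8. Its call in Cirrhosis was lost in 5 of 18 fits without 1 library and that in Cirrhosis-PTH in 9 of 18, Control replicates 2 and 7 among both. Of 13 tested H4 genes, 2 were higher and 3 lower in Cirrhosis than in Control. Over all genes, 25.5% were higher and 25% lower. Without Control replicates 7 and 8, 4 H4 genes were higher and 1 lower, where 26.1% and 20.2% of all genes were. Outside the Hist1 cluster, Hist2h4 had medians of 7.87 CPM in Cirrhosis-PTH, 7.05 CPM in Cirrhosis and 7.30 CPM in Control, and Hist4h4 medians of 1.83, 1.38 and 1.76 CPM. Neither passed a test.

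**Figure D3:**
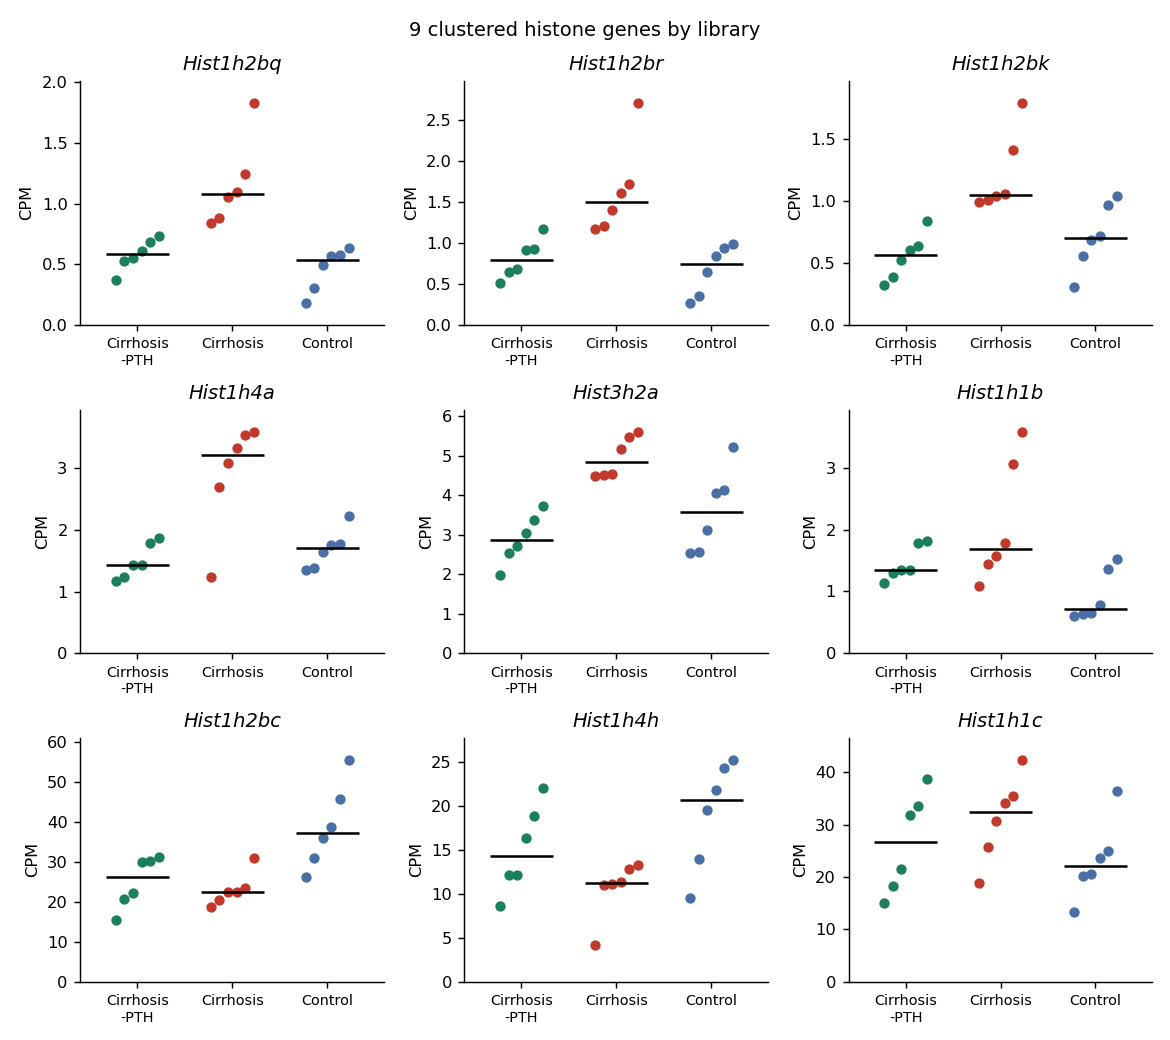
CPM of 9 members by library (points, 6 per group; black line, median; y axes from 0). The Cirrhosis libraries of Hist1h2bq and Hist1h2br lie above all others, and those of Hist1h2bc lie mostly under Control, where the medians are 22.5 and 37.4 CPM.

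Among H2A genes, Hist3h2a (chr11:58954685-58956830), the sole tested gene of the Hist3 cluster, had 1.98, 2.87 and 3.74 CPM in Cirrhosis-PTH, 4.49, 4.86 and 5.62 CPM in Cirrhosis and 2.55, 3.59 and 5.23 CPM in Control. The Cirrhosis-PTH and Cirrhosis libraries did not overlap, and Control reached into both. It fell in Cirrhosis-PTH against Cirrhosis by 0.78 on the log2 scale (SE 0.18, adjusted p = 0.00116) and rose in Cirrhosis against Control by 0.46 (SE 0.18, adjusted p = 0.0321), the rise being lost without Control replicate 2, 3 or 7 or Cirrhosis replicate 2, 3 or 4. It was the sole H2A gene called in any comparison. Hist2h2ac, of the Hist2 cluster, spread from 1.05 to 5.98 CPM in Cirrhosis-PTH, 0.652 to 5.37 CPM in Cirrhosis and 1.22 to 6.50 CPM in Control and passed no test.

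Hist2h2aa1 (chr3:96245497-96246082) was the H2A gene with the most reads, but it was listed at 0 in 8 libraries: 2 of Cirrhosis-PTH, 2 of Cirrhosis and 4 of Control. In the 10 other libraries it had up to 1769 counts. Gm20633 and Gm20634, which overlap it, and Gm20632, which overlaps its copy Hist2h2aa2, held reads in all 18 libraries. Summed over these 5 genes the locus had 11.3, 22.7 and 52.7 CPM (lowest, median and highest) in Cirrhosis-PTH, 7.33, 16.0 and 42.1 CPM in Cirrhosis and 12.2, 26.6 and 58.0 CPM in Control. No library was at 0 in that sum. Gm20634 also overlaps the H3 gene Hist2h3c1, so the sum may hold reads of that gene. The sum passed no test, with adjusted p-values of 0.662, 0.415 and 0.866 (edgeR) in Cirrhosis-PTH against Cirrhosis, Cirrhosis against Control and Cirrhosis-PTH against Control. Values of Hist2h2aa1 alone are therefore uncertain.

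**Figure D4:**
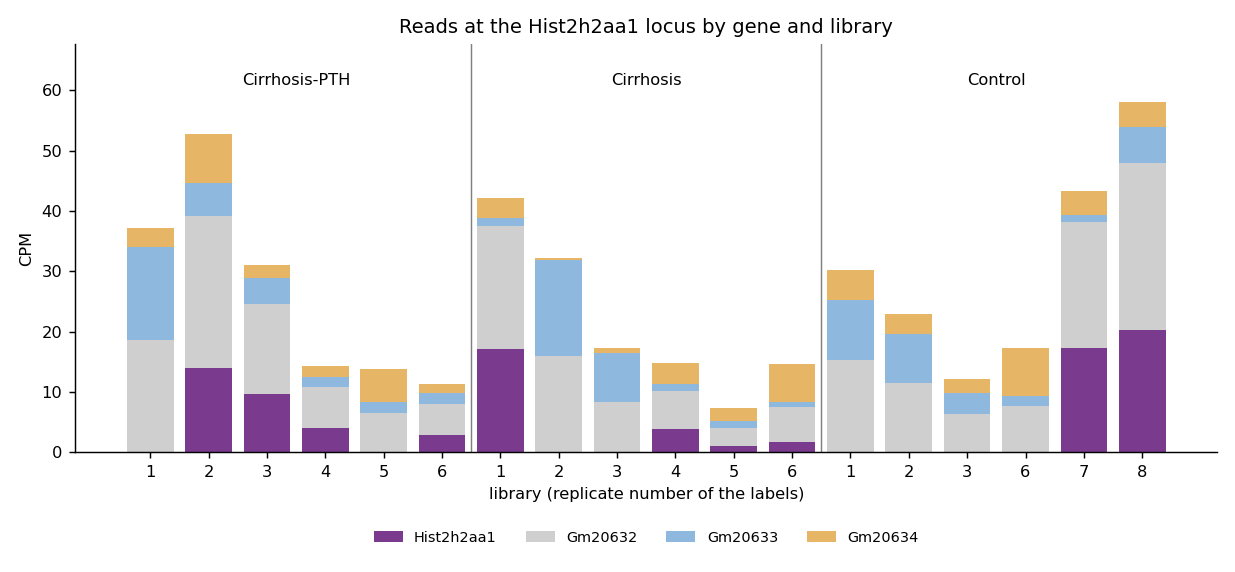
CPM of Hist2h2aa1, of Gm20633 and Gm20634, which overlap it, and of Gm20632, which overlaps its copy, stacked, in each library (x axis, replicate number within group; y axis, CPM from 0). Hist2h2aa1 is listed at 0 in 8 libraries, and the lowest summed bar of all 18 stands at 7.33 CPM.

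Among linker H1 genes, which share little sequence, 4 of the 5 tested had positive changes in Cirrhosis against Control and 2 passed the threshold. Over all genes, 50.9% had positive changes and 25.5% were called higher. Hist1h1b (chr13:21779883-21780625) had 1.13, 1.34 and 1.81 CPM in Cirrhosis-PTH, 1.10, 1.68 and 3.58 CPM in Cirrhosis and 0.607, 0.717 and 1.52 CPM in Control. Its Cirrhosis and Control ranges overlapped through Control replicates 7 and 8. Hist1h1b rose in Cirrhosis against Control by 1.20 on the log2 scale (SE 0.30, adjusted p = 0.00196). Against Control it was also higher in Cirrhosis-PTH once Control replicates 7 and 8 were left out (log2 1.15, adjusted p = 0.0206, edgeR), and not with them (log2 0.67, adjusted p = 0.178). Hist1h1d had medians of 7.08 CPM in Cirrhosis-PTH, 7.67 CPM in Cirrhosis and 6.27 CPM in Control and rose in Cirrhosis against Control by 0.47 (SE 0.18, adjusted p = 0.0387), a call lost without Control replicate 1, 2, 3 or 7 or Cirrhosis replicate 2, 3 or 4.

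Hist1h1a (chr13:23763666-23764406) had 0.398, 0.636 and 0.853 CPM in Cirrhosis-PTH, 0.602, 1.37 and 1.75 CPM in Cirrhosis and 0.220, 0.787 and 1.23 CPM in Control. It fell in Cirrhosis-PTH against Cirrhosis by 0.93 on the log2 scale (SE 0.33, adjusted p = 0.0274), a call lost without Cirrhosis replicate 3 or 5 or Cirrhosis-PTH replicate 1 or 6. Hist1h1c, the H1 gene with the most reads, had 15.0, 26.7 and 38.7 CPM in Cirrhosis-PTH, 18.9, 32.5 and 42.4 CPM in Cirrhosis and 13.2, 22.1 and 36.4 CPM in Control, and passed no test. Without Control replicates 7 and 8 it was higher in Cirrhosis than in Control (log2 0.74, adjusted p = 0.0378, edgeR). Hist1h1e had medians of 14.3 CPM in Cirrhosis-PTH, 11.2 CPM in Cirrhosis and 18.0 CPM in Control. DESeq2 called it lower in Cirrhosis than in Control (log2 -0.69, adjusted p = 0.033), and edgeR did not (log2 -0.73, adjusted p = 0.0606).

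Among H3 genes, all 11 tested had positive changes in Cirrhosis against Control, and 1 was called, where 25.5% of all genes were higher. All 11 had negative changes in Cirrhosis-PTH against Cirrhosis, where 2 were called and 18.6% of all genes were lower. H3 genes share a median of 59% of their windows with other genes, and both comparisons use the same Cirrhosis libraries. The 11 changes are therefore not independent of each other. The H3 genes with the most reads were not among those called. Hist1h3e had 2.57, 3.61 and 6.97 CPM in Cirrhosis-PTH, 1.70, 4.06 and 6.53 CPM in Cirrhosis and 2.11, 3.70 and 6.92 CPM in Control, and Hist1h3f had medians of 1.45, 1.83 and 1.07 CPM in those groups. Their ranges overlapped throughout. Without Control replicates 7 and 8 Hist1h3f was higher in Cirrhosis than in Control (log2 1.12, adjusted p = 0.0144, edgeR).

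The members were also counted by level and by position. Over all tested genes, 25.5% were higher and 25% lower in Cirrhosis than in Control. In Cirrhosis-PTH against Cirrhosis, 20.1% of all genes were higher and 18.6% lower. Of 26 tested members with a mean of at least 1 CPM, 3 were lower in Cirrhosis-PTH than in Cirrhosis, and 7 were higher and 4 lower in Cirrhosis than in Control. Of 35 with less, 9 were lower in Cirrhosis-PTH than in Cirrhosis and 34 had negative changes, and in Cirrhosis against Control 3 were higher, 0 lower and 33 positive. The 19 members in chr13:21715763-21837530 had a median log2 change of -0.73 in Cirrhosis-PTH against Cirrhosis (4 lower) and of 0.70 in Cirrhosis against Control (5 higher, 0 lower). The 28 tested members in chr13:23531050-23764406 had medians of -0.47 (4 lower) and 0.39 (3 higher, 4 lower). The 4 members lower in Cirrhosis than in Control all lie in that stretch. The differences between levels and between blocks were not tested.

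Genes of the same cell cycle steps were counted from lists. Several of them overlap a gene on the opposite strand (Tk1, Prc1, Cdc20, Cstf2, Rbbp4, Upf1), so their reads may be mixed. Over all tested genes, 25.5% were higher and 25% lower in Cirrhosis than in Control. The shares were 20.1% and 18.6% in Cirrhosis-PTH against Cirrhosis, and 6.34% and 2.48% in Cirrhosis-PTH against Control. Of 30 mitosis genes, 24 were higher and 1 lower in Cirrhosis than in Control (median log2 1.70), and 2 were higher and 14 lower in Cirrhosis-PTH than in Cirrhosis (median log2 -0.84). Summed, they had 35.0 to 48.7 CPM in Cirrhosis-PTH, 51.7 to 81.0 CPM in Cirrhosis and 25.4 to 37.8 CPM in Control, so that Cirrhosis lay above both other groups without overlap. Mki67, a nuclear protein of dividing cells, had medians of 5.27 CPM in Cirrhosis-PTH, 10.9 CPM in Cirrhosis and 3.35 CPM in Control. It fell in Cirrhosis-PTH against Cirrhosis by 1.22 on the log2 scale (SE 0.26, adjusted p = 0.000832) and rose in Cirrhosis against Control by 1.74 (SE 0.26, adjusted p = 1.92e-05). Prc1, which bundles spindle microtubules, fell by 1.87 and rose by 2.37 in those comparisons (adjusted p = 3.27e-05 and 1.74e-06, edgeR). Pttg1, the securin, went the other way (log2 0.72 and -0.83, adjusted p = 2.55e-06 and 2.21e-07, edgeR). Cdk1 and Cdc20, which drive and end mitosis, were also higher in Cirrhosis-PTH than in Control (log2 1.55 and 1.44, adjusted p = 0.000288 and 0.017, edgeR), among 3 higher and 0 lower mitosis genes.

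Of 44 DNA replication genes, 22 were higher and 8 lower in Cirrhosis than in Control, 7 higher and 17 lower in Cirrhosis-PTH than in Cirrhosis, and 0 higher and 2 lower in Cirrhosis-PTH than in Control. The shares higher and lower over all genes were 25.5% and 25%, 20.1% and 18.6%, and 6.34% and 2.48%, in the same order. Pcna, the sliding clamp of DNA polymerase, fell in Cirrhosis-PTH against Cirrhosis by 0.38 (SE 0.09, adjusted p = 0.00122) and rose in Cirrhosis against Control by 0.42 (SE 0.09, adjusted p = 0.000313), both log2. Mcm6, a helicase subunit, had medians of 3.63 CPM in Cirrhosis-PTH, 11.9 CPM in Cirrhosis and 2.64 CPM in Control and changed by -1.59 and 2.01 (adjusted p = 7.14e-08 and 1.68e-09, edgeR). Mcm10, a replication initiation factor, and Tk1, a thymidine kinase whose gene overlaps Afmid, went the other way (log2 1.62 and 1.67 in Cirrhosis-PTH against Cirrhosis, adjusted p = 7.08e-07 and 8.83e-08, edgeR). In Cirrhosis against Control their log2 changes were -2.20 and -1.48 (adjusted p = 1.08e-08 and 1.65e-07, edgeR). Mcm10 had medians of 35.0, 11.8 and 54.3 CPM and Tk1 of 23.6, 7.25 and 22.0 CPM in Cirrhosis-PTH, Cirrhosis and Control. Summed, the replication list had 226 to 249 CPM in Cirrhosis-PTH, 217 to 238 CPM in Cirrhosis and 245 to 260 CPM in Control. Such a sum weighs genes by their level, so the falls of Mcm10 and Tk1 in Cirrhosis outweigh the rise of Mcm6 in it.

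Of 15 genes that make and process histone mRNA, 4 were higher and 2 lower in Cirrhosis than in Control, and 2 higher and 5 lower in Cirrhosis-PTH than in Cirrhosis. In each of these comparisons most passed no test, and over all genes 25.5% were higher and 25% lower in Cirrhosis than in Control, and 20.1% higher and 18.6% lower in Cirrhosis-PTH than in Cirrhosis. Slbp had 5.61, 6.56 and 7.74 CPM in Cirrhosis-PTH, 7.11, 7.61 and 8.40 CPM in Cirrhosis and 5.56, 5.79 and 6.95 CPM in Control. It rose in Cirrhosis against Control by 0.36 (SE 0.10, adjusted p = 0.0033), with no overlap between those groups, and did not pass the threshold in Cirrhosis-PTH against Cirrhosis (log2 -0.23, SE 0.10, adjusted p = 0.0578), where DESeq2 gave 0.0175. Npat, which activates histone gene transcription, had medians of 10.2, 11.1 and 9.77 CPM in Cirrhosis-PTH, Cirrhosis and Control and was not called with all 18 libraries in edgeR (adjusted p = 0.0957 in Cirrhosis against Control, where DESeq2 gave 0.0329). It passed in Cirrhosis against Control without Cirrhosis-PTH replicate 2 or 4, and in Cirrhosis-PTH against Cirrhosis without Cirrhosis-PTH replicate 2. Cstf2, a cleavage factor used at histone ends, was lower in Cirrhosis-PTH than in Cirrhosis (log2 -0.44, adjusted p = 0.000297) and higher in Cirrhosis than in Control (log2 0.46, adjusted p = 0.000142). Lsm10, of the U7 particle, went the other way (log2 0.56 and -0.57, adjusted p = 0.00101 and 0.000646, edgeR). Upf1, which takes part in histone mRNA decay, was lower in Cirrhosis-PTH than in Cirrhosis and Control (log2 -0.27 and -0.22, adjusted p = 0.00211 and 0.0361, edgeR). The call of Upf1 against Control was lost without Control replicates 7 and 8 (adjusted p = 0.126), and without Control replicate 1, 2, 3 or 8 or Cirrhosis-PTH replicate 3, 4, 5 or 6.

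The 11 genes listed as replication-independent histones summed to 290 to 326 CPM in Cirrhosis-PTH, 295 to 319 CPM in Cirrhosis and 268 to 295 CPM in Control, and 2 were higher and 2 lower in each comparison with Cirrhosis, no larger a share than over all genes. H3f3b, which encodes the replacement histone H3.3, fell in Cirrhosis-PTH against Cirrhosis by 0.43 (adjusted p = 1.36e-05) and rose in Cirrhosis against Control by 0.66 (adjusted p = 3.3e-08), with all 6 Cirrhosis libraries above all others. H3f3a, which encodes the same protein, had medians of 74.1, 62.8 and 66.8 CPM in Cirrhosis-PTH, Cirrhosis and Control and passed no test. H2afv went against H3f3b (log2 0.71 and -0.68, adjusted p = 4.11e-07 and 4e-07, edgeR), and H2afz passed none. H1f0, the linker histone of resting cells, was higher in Cirrhosis-PTH than in Cirrhosis (log2 0.46, adjusted p = 0.0074) and lower in Cirrhosis than in Control (log2 -0.47, adjusted p = 0.00452). H2afx, the variant marked at DNA breaks, had medians of 1.74, 2.77 and 2.06 CPM and fell in Cirrhosis-PTH against Cirrhosis by 0.77 (adjusted p = 0.0301), a call lost without Cirrhosis replicate 1 or Cirrhosis-PTH replicate 1 or 6 (adjusted p up to 0.0869). Of 22 histone chaperones, 7 were higher and 3 lower in Cirrhosis than in Control, where 25.5% of all genes were higher and 25% lower. Hjurp and Rbbp4 were among the lower (log2 -0.85 and -0.59, adjusted p = 2.61e-08 and 7.79e-08, edgeR). In Cirrhosis-PTH against Cirrhosis 2 chaperones were higher, both of those, and 6 lower, where 20.1% of all genes were higher and 18.6% lower.

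**Figure D5:**
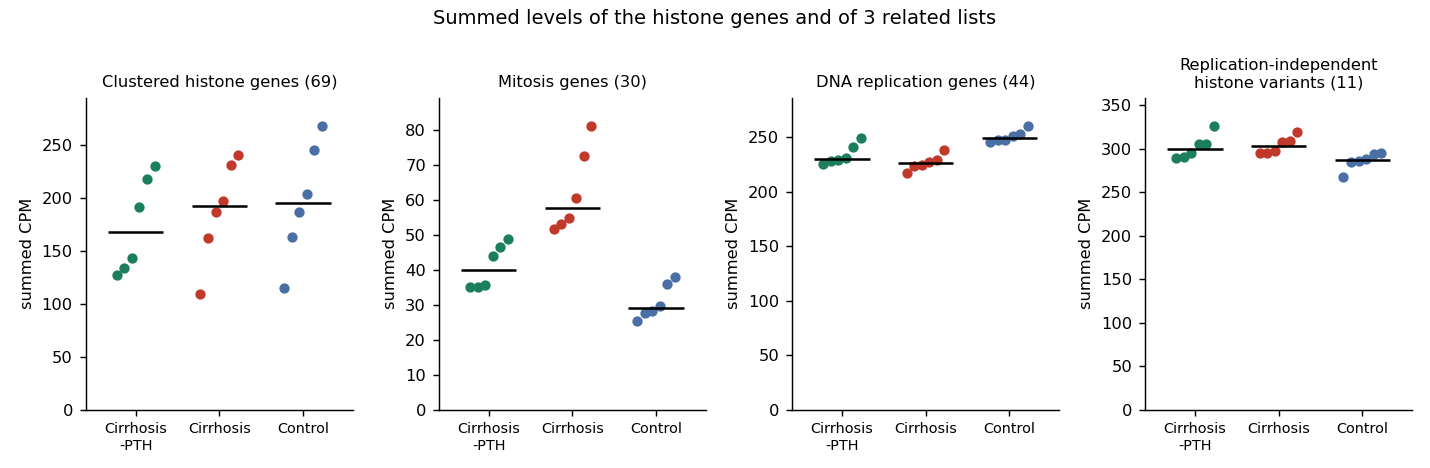
Summed CPM by library of the 69 clustered histone genes and of the mitosis, DNA replication and replication-independent histone lists (points, 6 per group; black line, median; y axes from 0). The mitosis sums of Cirrhosis, 51.7 to 81.0 CPM, lie above both other groups, while the clustered histone sums overlap between all groups.

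Some marker lists of other cells moved with the groups, and others had few calls. Of 6 T cell markers, 1 was higher in Cirrhosis than in Control, and 0 were called in Cirrhosis-PTH against Cirrhosis. Of 4 tested plasma cell markers, 0 were called in Cirrhosis against Control, and 1 was lower in Cirrhosis-PTH than in Cirrhosis. All 5 B cell markers and all 4 cholangiocyte markers were higher in Cirrhosis than in Control. In Cirrhosis-PTH against Cirrhosis 0 of these B cell markers were called, and 1 cholangiocyte marker was lower. All 7 recruited macrophage markers were higher in Cirrhosis than in Control, where 25.5% of all genes were. Of them 6 were lower in Cirrhosis-PTH than in Cirrhosis, where 18.6% of all genes were. Their sums were 43.4 to 119 CPM in Cirrhosis-PTH, 200 to 257 CPM in Cirrhosis and 9.06 to 18.8 CPM in Control. Neutrophil markers, 4 of 5 tested, summed to 3.33 to 12.1 CPM in Cirrhosis-PTH, 15.8 to 125 CPM in Cirrhosis and 2.17 to 8.24 CPM in Control, and granulocyte precursor markers, 3 of 4 tested, to 0.0425 to 1.02, 1.02 to 15.3 and 0.0594 to 2.13 CPM. Both highest values were in Cirrhosis replicate 2, which also had the highest Hist1h2bq, Hist1h2br and Hist1h2bk. Stellate cell and myofibroblast markers summed to 306 to 591 CPM in Cirrhosis-PTH, 584 to 711 CPM in Cirrhosis and 239 to 333 CPM in Control. No marker of the macrophage, neutrophil, granulocyte precursor and stellate cell lists was at 0 in all libraries. The part of any of these cells in the histone results was not tested. Without Cirrhosis replicate 2, Hist1h2bq and Hist1h2br kept their calls in both comparisons with Cirrhosis, while Hist1h2bk kept its call in Cirrhosis-PTH against Cirrhosis and lost that in Cirrhosis against Control.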

How the data were processed

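Gene counts of 18 mouse liver libraries were used as deposited by the authors, as whole numbers per gene. The submitters' processing notes name GRCm38, HISAT2 2.2.1, StringTie 2.1.5, cutadapt 4.2, Bowtie 1.3.1, Trim Galore and Bowtie2, without role or order. The counting program, its strand setting and its treatment of reads with several matches are not given in the sources used here. Genes were filtered with filterByExpr at its default settings, and all 18 libraries were fitted in 1 model of 3 groups (edgeR 4.0.16 in R 4.3.3, TMM scaling, robust quasi-likelihood F-test, two-sided, Benjamini-Hochberg over all genes tested, threshold 0.05). Levels are CPM on TMM-scaled library sizes. DESeq2 1.42.0 was an alternative. The fit was checked on simulated counts. Each library was taken as 1 mouse; the labels do not say whether livers were pooled, and p-values measure the spread between these libraries.

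The members and gene lists were chosen with earlier results of these data known. Named members were the 2 with the highest mean CPM in each class, up to 3 with the smallest p in each direction of each comparison, the tested H1 genes, and the tested Hist2, Hist3 and Hist4 genes with a mean of at least 1 CPM. Other genes were the 2 with the smallest p of each list in each comparison, and H2afx, H2afz, H3f3a, H3f3b, H1f0, Slbp, Npat, Pcna and Mki67. The reads of Hist1h2bq and Hist1h2br, and those of the Hist2h2aa1 locus, were summed as alternatives chosen after seeing the data. Stem-loops, overlaps, GC content and shared windows came from GENCODE mouse release 21, which held 54723 of the 54752 gene IDs, and promoters from RefSeq (GRCm38.p6).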

Additional observations from a re-analysis of the deposited data

Results flagged for a closer look

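In 84 groups of 6 libraries, 5 values lay farther from the nearest other library than Dixon's 95% limit allows, and chance flags about 1 group in 20. Hist1h3f had 3.27 CPM in Cirrhosis-PTH replicate 2, where the next library had 1.48 CPM. Hist1h2br had 2.7 CPM in Cirrhosis replicate 2, where the next had 1.72 CPM. Hist1h4h had 4.2 CPM in Cirrhosis replicate 5, where the next lowest had 11 CPM. The sum of all H4 genes in that library was 31.1 CPM, where the next lowest had 58.3 CPM. Hist2h2aa1 had 17.2 CPM in Cirrhosis replicate 1, where the next had 3.85 CPM, a gene listed at 0 in 2 libraries of that group.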

How the results depend on the processing

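Of 64 calls on named genes, 64 remained with RLE scaling, without the ribosomal loci and with GC-corrected offsets (chosen after seeing the data, 11 members lower in Cirrhosis-PTH than in Cirrhosis), 63 with DESeq2, 60 in fits of the compared groups alone, 58 without a filter and 57 without Control replicates 7 and 8, and 53 with the replicate block. No called value changed sign in these fits. Without Control replicates 7 and 8, 23 members were higher and 2 lower in Cirrhosis than in Control, and 1 was higher and 0 lower in Cirrhosis-PTH than in Control. Of all 22867 genes tested in that fit, 5963 were higher and 4613 lower in Cirrhosis than in Control, and 1594 and 369 in Cirrhosis-PTH than in Control. In Cirrhosis-PTH against Control, 0 members were lower without a filter and 1 in the fit of those groups alone, and DESeq2 called 1 higher. Leaving out the ribosomal loci set the median summed level at 295 CPM in Cirrhosis-PTH, 337 CPM in Cirrhosis and 341 CPM in Control. Without 1 library, members lower in Cirrhosis-PTH than in Cirrhosis numbered 6 to 13 and members higher 0 to 0, those higher in Cirrhosis than in Control 5 to 14 and lower 3 to 5, and those higher in Cirrhosis-PTH than in Control 0 to 1 and lower 0 to 2. Hist1h3e, called in no fit, ran from -0.10 to 0.29 (log2, Cirrhosis against Control) and changed sign. The causes were not tested.

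Libraries with the same replicate number did not deviate together: correlations of paired deviations ran from -0.103 to 0.003, from -0.121 to 0.108 and from -0.097 to 0.016 in Cirrhosis-PTH against Cirrhosis, Cirrhosis against Control and Cirrhosis-PTH against Control. Of 12, 8 and 8 libraries, 0, 2 and 1 correlated best with their own number. With the replicate block, 1 member was higher and 17 lower in Cirrhosis-PTH than in Cirrhosis, 37 higher and 2 lower in Cirrhosis than in Control, and 3 higher and 0 lower in Cirrhosis-PTH than in Control. Of all 21914 genes tested with the block, 4242 were higher and 3977 lower in Cirrhosis-PTH than in Cirrhosis. In Cirrhosis against Control 4936 were higher and 4590 lower, and in Cirrhosis-PTH against Control 1109 and 245. Control replicates 7 and 8 share their numbers with no other group, so the block leaves them out of the comparison.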
